A study of Mus musculus with 34 samples.

Results

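The solute carriers described here move amino acids and neurotransmitters across membranes. They were chosen by gene symbol, as members of the SLC1, SLC3, SLC6, SLC7, SLC36, SLC38 and SLC43 families. Each had at least 1 region of H3K27ac (acetylated lysine 27 of histone H3, found at active promoters and enhancers) within 100 kb of a transcription start. Apart from the presence of such a region, no measured level entered the rule. Earlier results of these data were known when the members were chosen. The rule found 60 genes of 18476 genes with such a region: 58 carriers and 2 opposite-strand transcripts, Slc36a1os and Slc7a6os, which carry a carrier's symbol but encode no carrier. There were 6 carriers of SLC1, 2 of SLC3, 19 of SLC6, 14 of SLC7, 4 of SLC36, 10 of SLC38 and 3 of SLC43. The 60 genes held 317 of 84647 regions in the table of monocytes and liver macrophages and 322 of 95038 regions in the table of cultured macrophages, with 53 genes in both. At the distance limit, the outermost region kept in the first table lay 97987 bases from Slc7a14 and held 6 and 3 tags in monocytes, 29 and 12 in RLM and 37 and 37 in Kupffer cells. The nearest one left out lay 103804 bases from the same gene and held 7 and 12, 10 and 17, and 54 and 93 tags.

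The series is a mouse ChIP-seq study of how liver macrophages acquire their enhancers, with 34 samples, of which 22 have values and 12 are inputs not analysed here on their own. Blood Ly6C-high monocytes came from untreated C57BL/6J mice. Repopulating liver macrophages (RLM) were taken 24 h after diphtheria toxin from Clec4f-cre/Rosa26iDTR mice, in which the Cre driven by the Kupffer cell gene Clec4f switches on the toxin receptor. Kupffer cells, the resident macrophages of the liver, came from untreated mice that the sample labels give as C57BL/6J and the series text as Clec4f-Cre/DTR, so the strain is uncertain. Bone marrow-derived macrophages (BMDM) came from C57BL/6J mice and were cultured for 4 days without ligand or with the Notch ligand DLL4 for 24 h. LXR was profiled in Kupffer cells and in BMDM cultured for 7 days and given its agonist GW3965 for 18 h. SMAD4 and RBPJ were profiled in nuclei of Kupffer cells from Clec4f-cre mice and in untreated BMDM of 4 days. Each group had 2 libraries. Separate animals or cultures are not stated for the 2 libraries, and the spread behind each p-value is therefore that between libraries and may be technical.

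Members of SLC1 carry glutamate, aspartate and small neutral amino acids, and SLC6 members carry neurotransmitters such as GABA, serotonin and glycine, and also taurine and creatine, with the sodium gradient. Most SLC7 carriers are exchangers that work as a pair with a heavy chain of SLC3: Slc7a11 with Slc3a2 takes up cystine in exchange for glutamate and so feeds glutathione synthesis, while Slc7a5 and Slc7a8 exchange large neutral amino acids and Slc7a1 and Slc7a2 bring in arginine and lysine alone. SLC38 carries glutamine and other neutral amino acids, and SLC36 carries small amino acids together with protons at the cell surface and in lysosomes. Of SLC43, Slc43a1 and Slc43a2 carry large neutral amino acids without sodium. In macrophages these carriers set the supply of arginine, glutamine and cystine for immune and redox functions, and many of their genes respond to amino acid shortage through the transcription factor ATF4.

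Promoter windows of 250 bases directly before a RefSeq start (GRCm38.p6, the assembly that mm10 names) were available for 44 of the 60 genes, as 64 windows. Those of Slc1a3, Slc7a11 and Slc7a1 are shown because H3K27ac at these promoters differed between the groups, that of Slc38a7 because a promoter rise and an LXR peak of Kupffer cells meet there, and that of Slc7a7 because it shares an ATF4 element with Slc7a11. All are written 5′ to 3′ on the strand of the gene, and capitals mark motif matches: TTGCATCA, the composite element of ATF4 and C/EBP, TGANTCA, the AP-1 site, and TGACNNNGC, the core of the antioxidant response element, each searched on both strands.
Slc1a3, chr15:8710808-8711057, minus strand: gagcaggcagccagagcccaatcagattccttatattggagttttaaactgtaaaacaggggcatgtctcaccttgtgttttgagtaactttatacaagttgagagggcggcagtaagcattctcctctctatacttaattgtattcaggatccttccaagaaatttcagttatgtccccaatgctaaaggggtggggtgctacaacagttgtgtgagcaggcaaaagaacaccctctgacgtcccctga
Slc7a11, chr3:50443614-50443863, minus strand: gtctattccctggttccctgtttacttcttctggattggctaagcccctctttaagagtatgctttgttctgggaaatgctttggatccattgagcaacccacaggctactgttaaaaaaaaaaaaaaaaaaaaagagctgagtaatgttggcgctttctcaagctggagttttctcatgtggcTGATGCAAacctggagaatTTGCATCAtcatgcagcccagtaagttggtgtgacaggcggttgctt
Slc7a7, chr14:54417703-54417952, minus strand: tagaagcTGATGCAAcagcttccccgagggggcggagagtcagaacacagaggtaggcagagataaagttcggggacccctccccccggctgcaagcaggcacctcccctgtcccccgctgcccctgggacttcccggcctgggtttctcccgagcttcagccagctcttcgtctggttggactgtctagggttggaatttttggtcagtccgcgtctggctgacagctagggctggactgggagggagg
Slc38a7, chr8:95853492-95853741, minus strand: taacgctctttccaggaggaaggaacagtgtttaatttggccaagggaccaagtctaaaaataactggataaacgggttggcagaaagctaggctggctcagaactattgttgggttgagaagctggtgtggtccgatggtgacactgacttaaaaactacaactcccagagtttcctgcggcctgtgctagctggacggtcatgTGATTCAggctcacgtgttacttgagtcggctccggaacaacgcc
Slc7a1, chr5:148399905-148400154, minus strand: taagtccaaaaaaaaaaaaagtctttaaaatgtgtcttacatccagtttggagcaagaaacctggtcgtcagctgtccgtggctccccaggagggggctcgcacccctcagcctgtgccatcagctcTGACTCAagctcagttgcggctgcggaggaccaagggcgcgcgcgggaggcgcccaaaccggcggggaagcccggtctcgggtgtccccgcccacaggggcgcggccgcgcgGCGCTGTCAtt
The window of Slc7a11 held the ATF4 element as a pair in opposite orientation, beginning 66 and 47 bases before the start. That of Slc7a7, at an upstream start outside the promoter region whose H3K27ac is given later, held it once, 243 bases before the start. Of all 32851 mouse promoter windows of this length, 0.792% held TTGCATCA, and among the 64 windows of the carriers 2 did. The AP-1 letters stood 45 bases before the start of Slc38a7 and 123 bases before that of Slc7a1, and 7 of 64 windows held them against 6.75% of all windows. The antioxidant core stood 11 bases before the start of Slc7a1, with 10 of 64 windows against 10.2% of all, and can overlap an AP-1 match. The RBPJ letters TTCCCAC were in 6 of 64 windows against 5.42% of all. No window of a carrier held the SMAD palindrome GTCTAGAC, the PU.1 letters GAGGAAGT, the LXR direct repeat (AGGTCA, any 4 bases, AGGTCA) or the E-box TCACGTGA, which 0.167%, 2.44%, 0.0152% and 0.785% of all windows held. None of these letters was found in the window of Slc1a3.

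Depth was 7.37 to 19.5 M (mega) tags per library in monocytes, RLM and Kupffer cells and 20.2 to 27.2 M in BMDM. A gene's level is the sum of its tags over its regions, as CPM (counts per M) of the scaled library total. It depends on how many regions a gene has, so levels were compared between groups and not between genes. Where a gene is said to rise or fall, this H3K27ac level is meant. RNA, protein and transport were not measured in these samples. Of the carrier regions, 59.0% and 54.3% in the 2 tables overlapped another, so that a tag can count more than once. In bulk ChIP-seq, fewer cells with the mark and less mark per cell cannot be told apart. Marker genes followed the labels: the summed level of 6 Kupffer cell markers was 60.2 to 74.9 CPM in monocytes, 136 to 146 in RLM and 1187 to 1311 in Kupffer cells, and that of 6 Ly6C-high monocyte markers was 532 to 552, 536 to 548 and 237 to 247 CPM. Markers of liver endothelium were also higher in Kupffer cells, at 193 to 197 CPM for 6 genes against 80.4 to 90.2 in monocytes, and their part in the differences was not tested. Of 6 hepatocyte markers, 3 were tested, and their sum was 15.8 and 17.1 CPM in monocytes, 19.1 and 20.3 in RLM and 48.1 and 50.7 in Kupffer cells. Their part in the Kupffer cell rises was not tested either.

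Kupffer cells differed from RLM at more carriers than RLM differed from monocytes, in both directions, as was also so over all genes. A gene was called where the adjusted p of edgeR's quasi-likelihood test with Benjamini-Hochberg adjustment was under 0.05 and the fold at least 2. Of the 60 genes 56 were tested, the 2 opposite-strand transcripts included. Between RLM and monocytes 8 of the 56 were higher in RLM and 1 was lower, where 6.20% and 5.80% of all 16749 genes tested were called higher and lower. Between Kupffer cells and RLM 11 were higher and 11 lower in Kupffer cells, against 14.6% and 12.8% of all genes, and between Kupffer cells and monocytes 13 were higher and 10 lower, against 18.4% and 14.4%. The median log2 difference of the 56 genes was 0.25 for RLM minus monocytes (0.07 for all genes), -0.47 for Kupffer cells minus RLM (-0.07) and -0.24 for Kupffer cells minus monocytes (-0.08). These comparisons share libraries, so their calls are not independent. Scaled to total tags instead of by TMM, which moved the median of all genes to -0.40 for Kupffer cells minus RLM, 6 carriers were higher and 18 lower there. With only regions within 10 kb of a start, 6 were higher and 7 lower in Kupffer cells than in RLM. Between RLM and monocytes the 8 carriers called higher became 3 without monocyte replicate 2 and 5 without RLM replicate 1. The opposite-strand transcripts Slc36a1os and Slc7a6os were not called in any comparison.

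**Figure D1:**
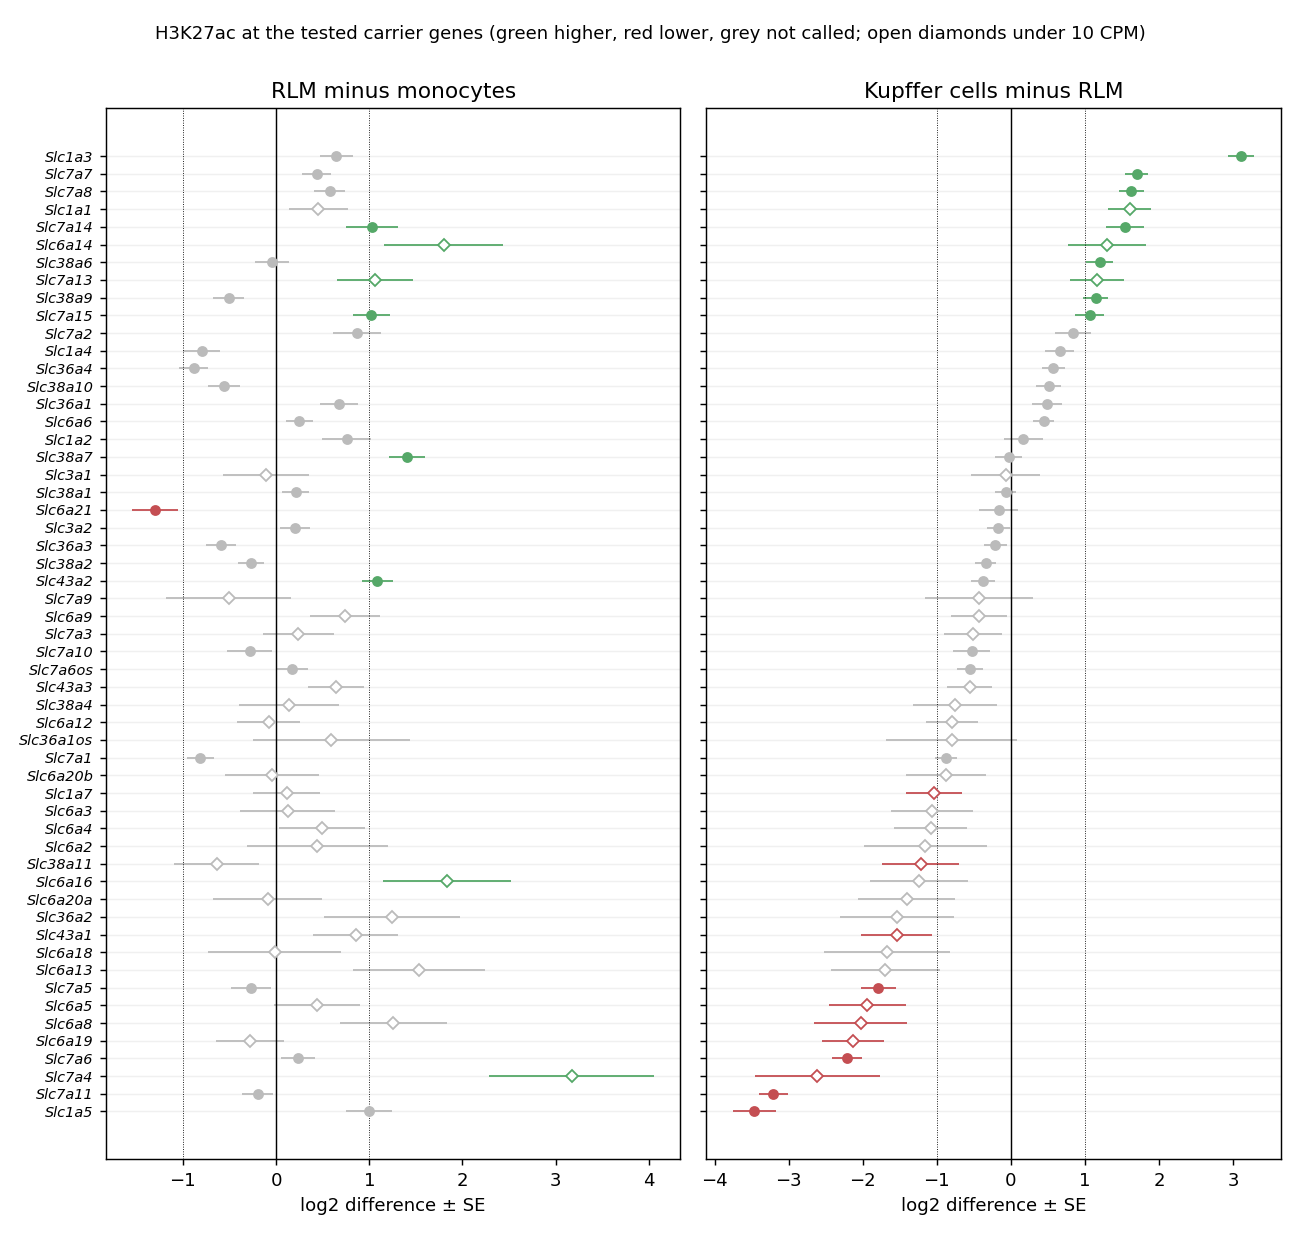
Log2 differences in H3K27ac summed per gene, RLM minus monocytes on the left and Kupffer cells minus RLM on the right, for 55 tested genes of the set, with bars for the standard error of the fit, green for genes called higher, red for lower, grey for no call and open diamonds for means under 10 CPM. Slc1a3, at 3.11, and Slc1a5, at -3.47, stand at the ends of the right panel, and grey points fill most of the left one.

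Slc6a14, Slc7a13, Slc7a14 and Slc7a15 were called higher at each step, in RLM against monocytes and in Kupffer cells against RLM, a pattern of 4 of the 56 genes and of 1.99% of all genes. A further 6 were called higher in Kupffer cells than in both other groups without a call between RLM and monocytes (9.60% of all genes), and 7 were called lower in the same way (6.69%). No call was made in any of the 3 comparisons for 26 of the 56 genes (56.8% of all), among them the heavy chain Slc3a2 and the glutamine carriers Slc38a1 and Slc38a2. Single regions gave a fuller picture. Of 300 tested regions of the 60 genes, 72 rose and 50 fell between RLM and Kupffer cells, where 22.3% and 13.9% of all 80982 regions tested did. Against monocytes 81 were higher and 62 lower in Kupffer cells, with 24.9% and 17.7% of all regions, and in RLM against monocytes 31 were higher and 31 lower, with 8.57% and 9.14%. Regions of both directions stood at 4 genes between Kupffer cells and RLM and at 7 between Kupffer cells and monocytes.

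Among the glutamate and neutral amino acid carriers of SLC1, Slc1a3 rose and Slc1a5 fell in Kupffer cells. Slc1a3, the glutamate and aspartate carrier best known from astrocytes, had 20.9 and 18.3 CPM in monocytes, 30.3 and 31.0 in RLM and 235.9 and 292.5 in Kupffer cells. Both Kupffer cell libraries lay far above all 4 others, and monocytes and RLM did not overlap either, although their difference of 0.65 (SE 0.18) was under the fold required. The difference of Kupffer cells from RLM was 3.11 on the log2 scale (SE 0.18, adjusted p = 2.4e-15), or 8.63-fold, and from monocytes 3.76 (SE 0.18, adjusted p = 8.4e-18). Of its 18 regions, 10 were higher and 1 lower in Kupffer cells than in RLM. The strongest group lay at the other end of the gene, in its last exon 75182 bases from the start. There the region chr15:8634625-8636625 held 50.4 and 73.0 CPM in Kupffer cells against 3.68 and 1.32 in RLM. The promoter region chr15:8709803-8711803 held 10.7 and 9.15 CPM in Kupffer cells and 0.53 and 0.81 in RLM, a difference of 3.83. In BMDM Slc1a3 was low without and with DLL4, at 2.07 to 3.25 CPM over its regions in that table.

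Slc1a5, which exchanges glutamine and other small neutral amino acids, went the other way. Its level was 29.7 and 28.5 CPM in monocytes, 55.3 and 60.5 in RLM and 8.35 and 3.12 in Kupffer cells. The 3 groups did not overlap, with RLM highest and Kupffer cells lowest. Kupffer cells minus RLM was -3.47 on the log2 scale (SE 0.29, adjusted p = 8.1e-10), or 11.1-fold lower, and Kupffer cells minus monocytes -2.47 (SE 0.29, adjusted p = 1.1e-07), while RLM minus monocytes was 0.99 (SE 0.25, adjusted p = 0.0030), just under the required fold. All 3 of its regions were lower in Kupffer cells in both comparisons. The promoter region chr7:16780300-16782300 was also higher in RLM than in monocytes, with 14.1 and 13.2 against 7.19 and 4.71 CPM. Slc1a1, a glutamate carrier of neurons and kidney, had 4.52 and 4.31 CPM in monocytes, 5.09 and 6.92 in RLM and 20.0 and 17.1 in Kupffer cells, and rose by 1.61 (SE 0.29, adjusted p = 2.8e-05) against RLM. This rise came from 3 overlapping intergenic regions 57071 to 58101 bases before the start. Within 10 kb of the start the difference was -1.50 (SE 0.82) and was not called.

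**Figure D2:**
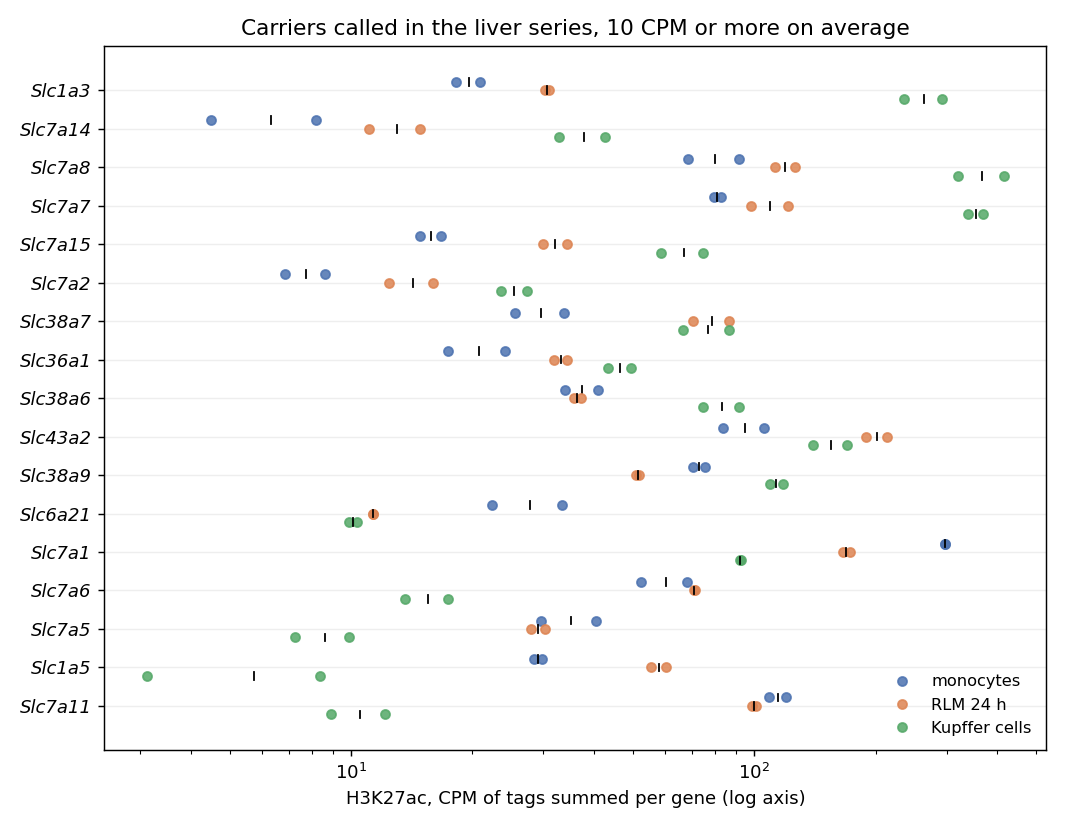
H3K27ac level per library, in CPM on a log axis, of 17 carriers that were called in at least 1 of the 3 comparisons and had a mean of 10 CPM or more, with 1 point per library and a bar at each group's mean. Slc1a3 reaches 292.5 CPM in Kupffer cells, and Slc7a11 stands at 98.6 CPM or more in RLM and at 12.1 CPM or less in Kupffer cells.

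H3K27ac at the cystine exchanger Slc7a11 fell in Kupffer cells, while that at its partner Slc3a2 was not called. Slc7a11 had 109.1 and 119.9 CPM in monocytes, 101.1 and 98.6 in RLM and 8.91 and 12.1 in Kupffer cells. Both Kupffer cell libraries lay far under the other 4. The difference from RLM was -3.21 on the log2 scale (SE 0.20, adjusted p = 9.8e-15), a fall of 9.26-fold, and that from monocytes -3.41 (SE 0.20, adjusted p = 4.2e-16). Of 13 regions, 12 were lower in Kupffer cells than in RLM and none was higher. The promoter region chr3:50442647-50444647, over the window printed above with its pair of ATF4 elements, held 12.6 and 12.5 CPM in monocytes, 12.0 and 9.24 in RLM and 0.83 and 1.35 in Kupffer cells. Between RLM and monocytes 2 overlapping regions in intron 6 were lower and 2 others in the same intron higher. Of the lower ones, chr3:50405094-50407094 went from 25.5 and 29.2 to 12.7 and 9.65 CPM in RLM and held 0.95 and 0.88 CPM in Kupffer cells. Of the higher ones, chr3:50401983-50403983 went from 1.49 and 1.32 to 5.91 and 3.15 CPM in RLM. The heavy chain Slc3a2 had 345.8 and 394.8 CPM in monocytes, 414.8 and 438.7 in RLM and 310.9 and 447.6 in Kupffer cells, with overlap between Kupffer cells and both other groups. None of its 9 regions was called in any of the 3 comparisons.

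**Figure D3:**
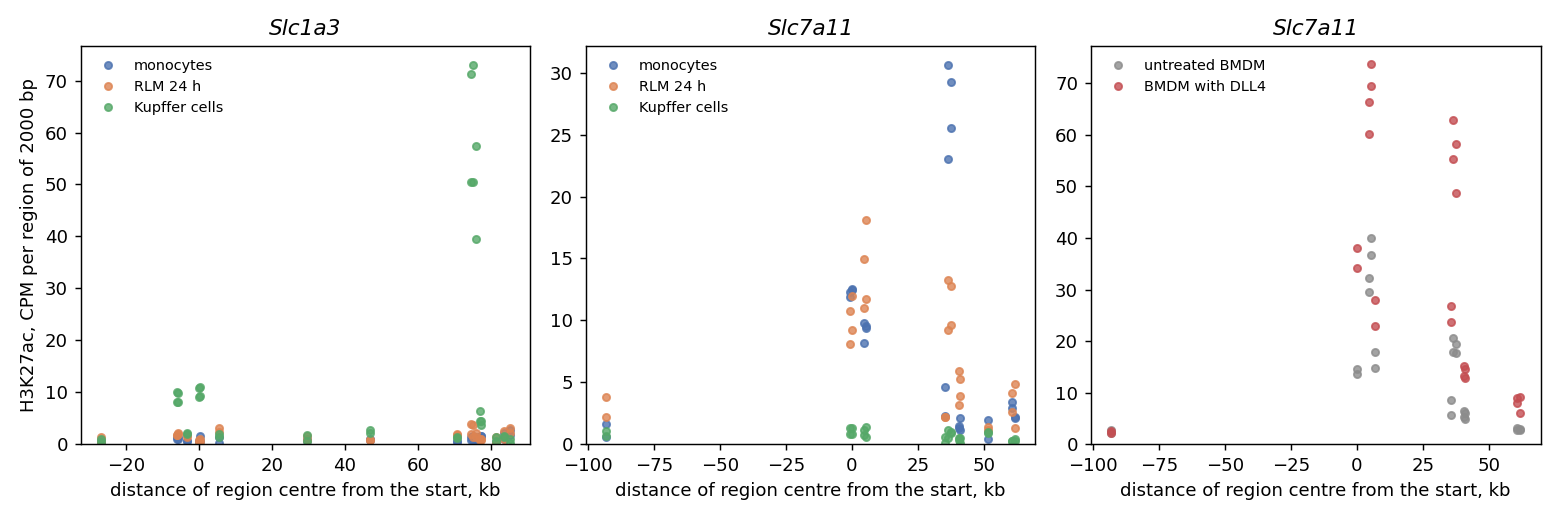
H3K27ac of each tested region in CPM, with 1 point per library, against the distance of the region's centre from the gene's start in kb: Slc1a3 and Slc7a11 in monocytes, RLM and Kupffer cells, and on the right Slc7a11 in BMDM without and with DLL4. Kupffer cells reach 73.0 CPM in the last exon of Slc1a3 and stay near 0 along Slc7a11, and the DLL4 points of Slc7a11 lie above the untreated ones at the promoter (37.98 and 34.1 against 14.5 and 13.6 CPM).

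The light chains for large neutral amino acids divided in Kupffer cells. Slc7a8, an exchanger of neutral amino acids found in epithelia, rose from 68.4 and 91.6 CPM in monocytes and 112.5 and 126.2 in RLM to 320.5 and 415.7 in Kupffer cells. Slc7a7, which exports arginine and lysine in exchange for neutral amino acids and is mutated in lysinuric protein intolerance, rose from 79.3 and 82.8 CPM and 121.1 and 98.1 CPM to 339.9 and 370.2 CPM. Slc7a5, the main exchanger of large neutral amino acids of dividing cells, had 40.4 and 29.7 CPM in monocytes, 30.3 and 27.9 in RLM and 9.90 and 7.27 in Kupffer cells. For all 3 carriers the Kupffer cell libraries lay outside the range of the other 4. The differences of Kupffer cells minus RLM were 1.63 (SE 0.17, adjusted p = 1.1e-09) for Slc7a8, 1.70 (SE 0.16, adjusted p = 8.6e-11) for Slc7a7 and -1.79 (SE 0.24, adjusted p = 1.7e-07) for Slc7a5. Slc7a6, which exchanges arginine for neutral amino acids like Slc7a7, fell from 71.2 and 70.9 CPM in RLM to 17.4 and 13.6, a difference of -2.21 (SE 0.20, adjusted p = 6.3e-11), with 52.3 and 68.2 CPM in monocytes. Its fall came from the 2 regions at its start. Over regions more than 3 kb from a start the difference was 0.095 (SE 0.77) and was not called.

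At Slc7a7, 9 of 11 regions rose from RLM to Kupffer cells. Its promoter region chr14:54408437-54410437 held 45.0 and 62.7 CPM in Kupffer cells against 19.1 and 17.1 in RLM. The largest difference from monocytes was in intron 4, at chr14:54397741-54399741, with 42.1 and 45.1 CPM in Kupffer cells and 3.06 and 3.72 in monocytes (3.68, SE 0.28). At Slc7a8, 8 of 12 tested regions were called higher against RLM and all 12 against monocytes. Intron 1 of Slc7a8, at chr14:54775307-54777307, held 12.9 and 12.6 CPM in Kupffer cells, 1.18 and 1.93 in RLM and 0.50 and 0.50 in monocytes. Other intronic regions of both genes, chr14:54397059-54399059 of Slc7a7 and chr14:54767532-54769532 of Slc7a8, were already called higher in RLM than in monocytes, by 1.81 (SE 0.31) and 1.74 (SE 0.34).

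Slc7a1, the main arginine importer of most cells, stepped down over the groups, with 296.6 and 298.1 CPM in monocytes, 165.7 and 172.4 in RLM and 92.5 and 92.2 in Kupffer cells. The groups did not overlap. Each step was under the required fold, at -0.81 (SE 0.15) for RLM minus monocytes and -0.87 (SE 0.15) for Kupffer cells minus RLM, and Kupffer cells minus monocytes was called at -1.69 (SE 0.15, adjusted p = 1.8e-11). The promoter region chr5:148398917-148400917, which takes in the window printed above, fell more, from 86.2 and 86.1 CPM in monocytes and 45.5 and 45.6 in RLM to 9.90 and 11.1 in Kupffer cells. An intergenic region 65700 bases before the start, chr5:148464604-148466604, moved the other way, from 1.32 and 0.83 CPM and 2.10 and 3.05 CPM to 15.9 and 18.1 CPM. Slc7a1 had 3 regions called higher and 5 lower between Kupffer cells and RLM. Slc7a2, the inducible arginine importer of liver and activated macrophages, had 8.61 and 6.84 CPM in monocytes, 16.0 and 12.4 in RLM and 27.3 and 23.5 in Kupffer cells, and was called against monocytes (1.71, SE 0.25, adjusted p = 5.0e-07). Over regions more than 3 kb from a start, the difference of Slc7a1 between Kupffer cells and monocytes was 0.27 (SE 0.20) and was not called.

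Of the SLC7 members with less known substrates, Slc7a14 and Slc7a15 gained at each step. Slc7a14, a lysosomal member studied in the retina, had 8.18 and 4.48 CPM in monocytes, 14.9 and 11.1 in RLM and 42.6 and 32.9 in Kupffer cells. Slc7a15, a paralogue present in mouse, had 14.8 and 16.7, 34.4 and 29.9, and 58.9 and 74.8 CPM. Neither gene's groups overlapped. The differences between Kupffer cells and RLM were 1.54 (SE 0.26, adjusted p = 8.3e-06) and 1.06 (SE 0.19, adjusted p = 2.6e-05), and those between RLM and monocytes 1.03 (SE 0.28, adjusted p = 0.0043) and 1.02 (SE 0.20, adjusted p = 1.6e-04). The region of Slc7a14 that changed most between Kupffer cells and RLM, chr3:31393125-31395125, lay 83806 bases before its start and rose from 1.05 and 2.13 to 18.6 and 16.1 CPM. Slc7a13, an aspartate and glutamate carrier of the kidney, was low in the 3 groups, with 2.73 and 1.61, 3.26 and 5.71, and 9.62 and 10.7 CPM. The RLM calls rest on single libraries: without monocyte replicate 2 the difference between RLM and monocytes was 0.69 for Slc7a13 and 0.61 for Slc7a14, and without RLM replicate 1 it was 0.80 for Slc7a14 and 0.91 for Slc7a15. For Slc7a15 it was 0.89 without monocyte replicate 1, for Slc7a13 0.55 without RLM replicate 2, and Kupffer cells minus RLM for Slc7a15 was 0.88 without Kupffer cell replicate 2. Within 10 kb of a start, RLM minus monocytes for Slc7a15 was -0.23 (SE 0.65) and was not called.

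Between Kupffer cells and RLM 17 members of SLC6 were tested, of which 2 rose and 3 fell, with a median of -1.08. The taurine carrier Slc6a6, well covered in every group, had 256.1 and 268.1 CPM in monocytes, 309.5 and 314.5 in RLM and 399.4 and 448.3 in Kupffer cells. Its groups did not overlap, but its differences of 0.25 (SE 0.14), 0.44 (SE 0.14) and, for Kupffer cells minus monocytes, 0.69 (SE 0.14) were not called. Of 15 regions of Slc6a6, 4 were called higher and none lower in Kupffer cells than in RLM. Among the 4 was the intron region chr6:91702502-91704502, with 11.7 and 15.3 CPM in Kupffer cells against 1.05 and 1.93 in RLM (3.14, SE 0.42). Slc6a21, a mouse member, had 22.3 and 33.3 CPM in monocytes and fell to 11.3 and 11.3 in RLM (-1.30, SE 0.25, adjusted p = 1.0e-04) and 10.3 and 9.87 in Kupffer cells. Slc6a19, the neutral amino acid carrier of gut and kidney, fell from 5.09 and 9.22 CPM in RLM to 0.85 and 2.14 in Kupffer cells (-2.13, SE 0.42, adjusted p = 8.3e-05). The glycine carrier Slc6a5 fell from 4.25 and 4.83 to 0.99 and 1.30 CPM (-1.94, SE 0.52), and the creatine carrier Slc6a8 from 3.26 and 4.06 to 1.56 and 0.45 CPM (-2.03, SE 0.63).

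Many members had a low level. Split at a mean of 10 CPM over the libraries of all 3 groups, those compared included, 27 of the 56 genes were under it and 29 over it. Under it, the median difference between Kupffer cells and RLM was -0.67 for all 5766 genes and -1.07 for these 27, of which 3 rose and 7 fell. Over it, the median was 0.16 for all 10983 genes and 0.17 for these 29, of which 8 rose and 4 fell. All genes split the same way, with 7.39% higher and 23.7% lower under 10 CPM and 18.4% higher and 7.07% lower over it. Falls were thus the more frequent call among low genes of any kind, and the part of the level in the carriers' falls was not tested.

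Several calls at low members rest on few tags. Slc7a4, an SLC7 member of uncertain transport function, had 6 and 0 tags in monocytes, 15 and 24 in RLM and 1 and 8 in Kupffer cells. Slc6a14, which carries neutral and cationic amino acids in colon and lung, had 16 and 1, 19 and 22, and 50 and 86 tags. It was called at each step, but between Kupffer cells and RLM (1.30, SE 0.53, adjusted p = 0.040) it lost the call without any 1 of the 4 libraries compared, with values of 1.20 to 1.47. Between RLM and monocytes it lost it without monocyte replicate 2 (0.85) and without RLM replicate 1 (1.72). Slc1a7, Slc38a11, Slc43a1 and the proline carrier Slc6a20a were called lower in Kupffer cells at means under 8 CPM, and Slc6a16 higher in RLM at 1.98 and 2.31 CPM against 0.60 and 0.59. The calls of Slc1a7, Slc43a1 and Slc6a16, that of Slc6a20a against monocytes and both of Slc38a11 were lost without at least 1 library, as were those of Slc7a4 and, against monocytes, of Slc6a5. The call of Slc6a8 was lost without Kupffer cell replicate 2, at -1.23.

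In SLC38, which carries glutamine and other neutral amino acids, Slc38a7 was already higher in RLM. This lysosomal exporter of glutamine and asparagine had 33.7 and 25.4 CPM in monocytes, 86.5 and 70.6 in RLM and 66.5 and 86.7 in Kupffer cells. RLM and Kupffer cells overlapped, and both lay above monocytes. RLM minus monocytes was 1.41 (SE 0.19, adjusted p = 6.7e-07) and Kupffer cells minus monocytes 1.38 (SE 0.19, adjusted p = 1.9e-07). The rise was at the promoter region chr8:95852556-95854556, over the window printed above, which went from 14.6 and 12.2 CPM to 39.3 and 32.0 in RLM and 27.1 and 38.7 in Kupffer cells. Over regions more than 3 kb from a start the differences were -0.65 (SE 0.66) and -0.84 (SE 0.63), and neither was called. Slc38a9, a lysosomal carrier that reports arginine to the growth kinase mTORC1, had 70.7 and 75.3 CPM in monocytes, 51.8 and 50.9 in RLM and 109.2 and 117.8 in Kupffer cells, and rose against RLM by 1.15 (SE 0.17, adjusted p = 8.6e-07). Slc38a6, found in brain, rose against RLM by 1.20 (SE 0.18, adjusted p = 2.0e-06), from 37.1 and 35.7 to 74.4 and 91.8 CPM. Its start is shared with Trmt5, so its promoter region cannot be assigned to 1 of the 2 genes. Its difference from monocytes, 1.15, was 0.96 without Kupffer cell replicate 2.

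At the broad glutamine carriers Slc38a1 and Slc38a2 single regions were called while the sums were not. Slc38a1 had 480.2 and 576.2 CPM in monocytes, 612.7 and 609.9 in RLM and 551.3 and 610.9 in Kupffer cells, with no call. Yet in its intron 1 the region chr15:96626415-96628415 rose from 1.24 and 0.74 CPM in monocytes and 2.10 and 2.95 in RLM to 16.2 and 16.3 in Kupffer cells (4.02 against monocytes, SE 0.39). The intergenic region chr15:96653938-96655938 fell from 29.5 and 30.1 CPM in monocytes to 8.67 and 9.14 in RLM (-1.74, SE 0.26) and held 14.5 and 19.3 CPM in Kupffer cells. Of 26 regions of Slc38a1, 9 were lower in RLM than in monocytes and 7 higher in Kupffer cells than in RLM. At Slc38a2, with 546.0 and 543.4 CPM in monocytes and 374.3 and 339.8 in Kupffer cells (-0.61, SE 0.14, not called), the groups did not overlap, RLM lying between them at 453.3 and 450.8 CPM. Of its 25 regions, 11 were lower and 1 higher in Kupffer cells than in monocytes. The region chr15:96756996-96758996 fell from 20.9 and 22.5 to 2.74 and 1.35 CPM. Slc38a10, with a summed difference of -0.05 (SE 0.17) from monocytes, had 1 intron region, chr11:120141750-120143750, that rose from 0.99 and 2.23 to 12.6 and 15.3 CPM.

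Among the lysosomal and sodium-independent carriers, Slc43a2, an exporter of large neutral amino acids, rose in RLM. It had 83.6 and 105.9 CPM in monocytes, 213.6 and 189.2 in RLM and 139.7 and 170.3 in Kupffer cells, and the 3 groups did not overlap. RLM minus monocytes was 1.09 (SE 0.16, adjusted p = 3.2e-06), and 0.88 without monocyte replicate 1 and 0.99 without RLM replicate 1, under the required fold. Slc36a1, the lysosomal proton-coupled carrier of small amino acids, stepped up from 24.1 and 17.4 to 34.4 and 31.8 and then 43.3 and 49.4 CPM. It was called between Kupffer cells and monocytes (1.16, SE 0.20, adjusted p = 9.1e-06), and its difference was 0.95 without monocyte replicate 2. Its neighbour Slc36a3, a related carrier known from testis, was not called as a sum. Within Slc36a3, the intron region chr11:55135925-55137925 fell from 13.9 and 17.0 CPM in RLM to 0.36 and 0.53 in Kupffer cells (-5.02, SE 0.43). Slc36a4 had 280.5 and 308.6 CPM in monocytes against 182.9 and 137.1 in RLM (-0.88, SE 0.16, not called), and its start region fell from 69.8 and 78.2 to 42.3 and 30.9 CPM.

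Added to BMDM for 24 h, DLL4 raised H3K27ac at the cystine exchanger Slc7a11 and at 3 other carriers and lowered it at 1. Of 52 tested genes, the 2 opposite-strand transcripts included, 4 rose and 1 fell, where 2.60% and 1.28% of all 16421 genes tested did, and the median difference was -0.12 (-0.01 for all genes). Slc7a11 went from 168.0 and 173.7 CPM without ligand to 425.4 and 382.9 with DLL4, with no overlap. The difference was 1.24 (SE 0.06, adjusted p = 2.3e-28), or 2.36-fold, and 9 of its 12 regions were called higher. Its promoter region held 14.5 and 13.6 CPM without and 37.98 and 34.1 with DLL4 (1.36), and the region chr3:50406831-50408831 in intron 6 went from 5.59 and 8.65 to 23.7 and 26.9 CPM (1.81, SE 0.16). Slc3a2, its partner, had 256.1 and 233.2 against 276.0 and 246.0 CPM, with overlap (0.09, SE 0.06). Monocytes and Kupffer cells were counted in another table, so their levels of Slc7a11 were not set against these.

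**Figure D4:**
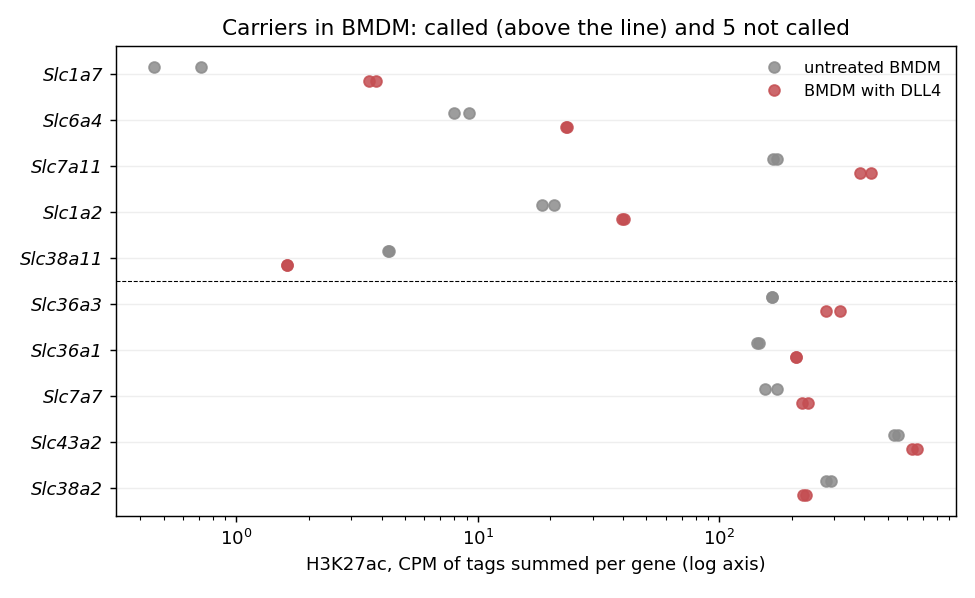
H3K27ac level per library, in CPM on a log axis, of the 5 carriers called between BMDM with and without DLL4 and of 5 more (Slc36a3, Slc36a1, Slc7a7, Slc43a2, Slc38a2) that were not called and were picked after their values were seen. Slc7a11 stands at 168.0 and 173.7 CPM without and 425.4 and 382.9 CPM with DLL4.

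The serotonin carrier Slc6a4 rose from 7.96 and 9.25 to 23.5 and 23.1 CPM with DLL4 (1.43, SE 0.17, adjusted p = 1.4e-10). Its region in intron 13, chr11:77027781-77029781, went from 1.26 and 1.12 to 7.76 and 7.56 CPM. Slc1a2, the main glutamate carrier of astrocytes, rose from 18.6 and 20.8 to 40.4 and 39.6 CPM (1.02, SE 0.13, adjusted p = 8.7e-10), and by 0.93 without untreated BMDM replicate 1. The retinal glutamate carrier Slc1a7 rose from 0.46 and 0.71 to 3.55 and 3.79 CPM (2.61, SE 0.50, adjusted p = 2.5e-05), and Slc38a11 fell from 4.31 and 4.25 to 1.63 and 1.62 CPM (-1.40, SE 0.38, adjusted p = 0.0028). With regions that do not overlap the fall of Slc38a11 was -1.41 and lost its call (adjusted p = 0.056), and the rise of Slc6a4 was 0.99 within 10 kb of a start. The 1 carrier called lower became 2 without untreated BMDM replicate 1 or DLL4 BMDM replicate 2 and 4 without DLL4 BMDM replicate 1. Slc36a3 had 164.9 and 165.5 against 276.1 and 316.6 CPM (0.84, SE 0.06), and Slc36a1 143.4 and 146.4 against 207.9 and 207.4 CPM (0.52, SE 0.06). Their libraries did not overlap, but both were under the required fold. By region, 21 of 273 tested rose and 14 fell, where 4.89% and 2.64% of all 82089 regions did. The 14 became 9 without untreated BMDM replicate 1, 6 without untreated BMDM replicate 2 and 4 without DLL4 BMDM replicate 2. Among the 21 were 4 regions of Slc36a3, 1 in intron 1 of Slc36a1 (chr11:55205108-55207108, from 8.80 and 12.5 to 24.1 and 23.4 CPM) and 1 in intron 2 of Slc7a13 (chr4:19837340-19839340, from 19.4 and 14.3 to 40.6 and 44.1 CPM). Markers of other cells moved with DLL4 too: the sum of 6 endothelial markers went from 58.1 to 60.1 CPM to 144 to 145 CPM, and their part in these differences was not tested.

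LXR, a nuclear receptor for oxysterols, SMAD4, which acts after TGF-beta and BMP, and RBPJ, the DNA-binding partner of Notch, had peaks at many carriers, in Kupffer cells at shares near those of all genes. A gene was counted where a peak of both libraries overlapped the same H3K27ac region. In Kupffer cells LXR was counted at 34 of the 60 genes, the 2 opposite-strand transcripts included (60.2% of all genes), SMAD4 at 32 (54.7%) and RBPJ at 16 (24.0%). In BMDM LXR was counted at 35 (50.5%), SMAD4 at 27 (45.7%) and RBPJ at 50 (84.4%). The RBPJ lists of Kupffer cell nuclei held 11277 and 13394 peaks against 78976 and 80480 in BMDM, so the factor's counts were not compared between the cells. The count for RBPJ in nuclei also depends on the rule, with 31 genes where a peak of either library sufficed, 27 with replicate 1 alone, 22 with replicate 2 alone and 0 at a fold over input of at least 8. Of the 58 carriers, all 3 factors were counted at 13 in Kupffer cells (20.9% of all genes), 2 at 17 (30.2%), 1 at 7 (15.8%) and none at 21 (33.1%). Peak heights are given as the authors' tags per 10 M, replicate 1 first. The second LXR library of Kupffer cells was called against an input named for a NASH diet.

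**Figure D5:**
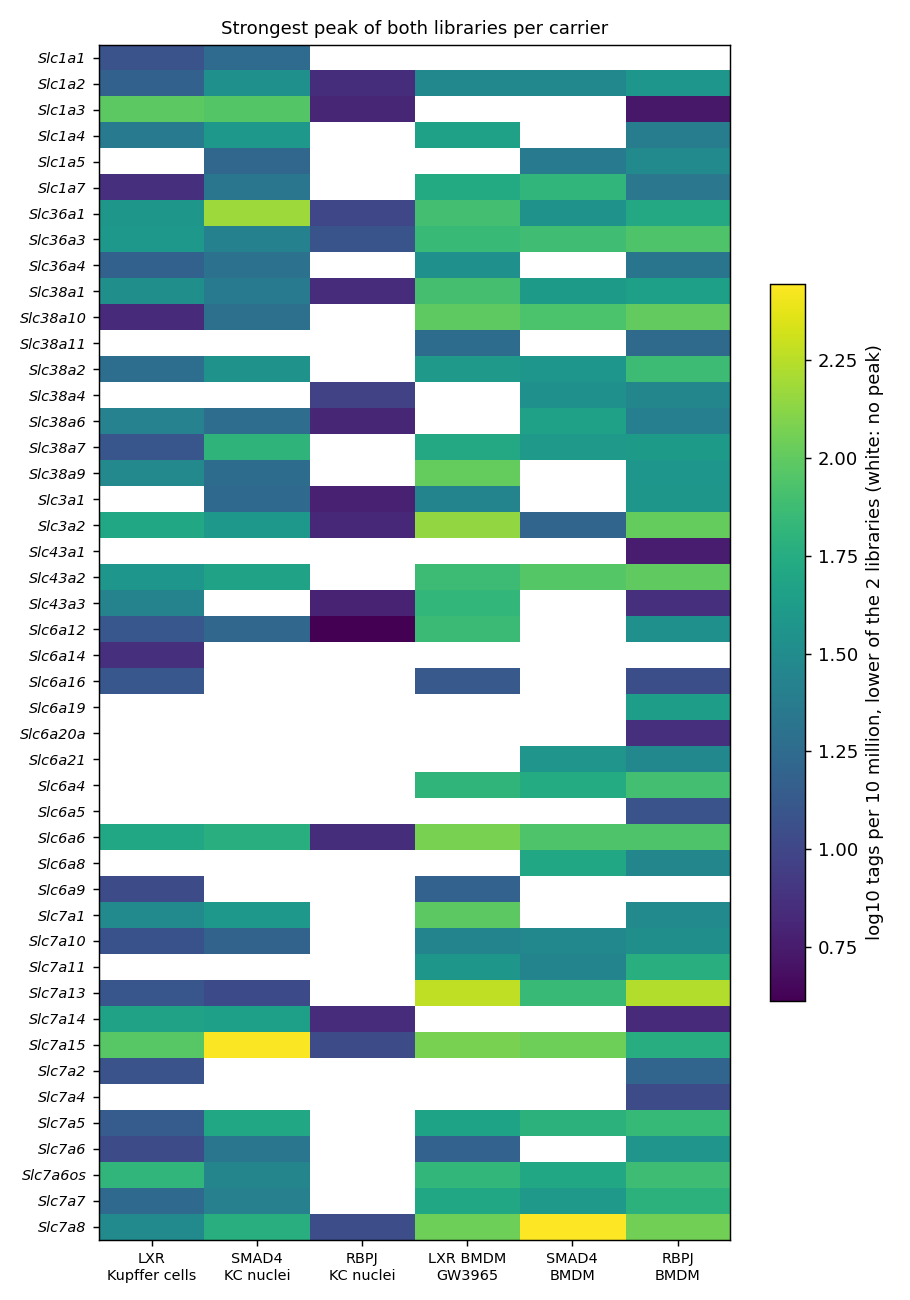
Highest LXR, SMAD4 and RBPJ peak found in both libraries at 46 genes of the set (rows) in each group (columns), coloured by the log10 of the authors' tags per 10 M in the lower of the 2 libraries, with white for no such peak. Slc1a3, Slc7a8, Slc7a14 and Slc7a15 have peaks of all 3 factors in Kupffer cells, and the row of Slc7a11 is white there and filled in BMDM.

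At several carriers that rose in Kupffer cells, peaks lay on regions that gained acetylation. Only peaks on H3K27ac regions were looked for. The share of gained regions with a peak, over all regions, was not counted, so the sites given are examples. At Slc1a3 the peaks met in its last exon, at chr15:8636112-8636278, with 221.6 and 96.6 tags for LXR, 90.3 and 128.0 for SMAD4 and 9.86 and 6.44 for RBPJ. At Slc7a14 the LXR peak of 165.0 and 46.5 tags lay in the gained region 83806 bases before its start. At Slc7a15, SMAD4 had a peak at chr12:8521571-8521719 with 270.3 and 284.9 tags in nuclei, and one of 110.4 and 217.6 tags in BMDM. That peak of Slc7a15 lies in the region chr12:8520545-8522545, which was called higher in Kupffer cells against monocytes (1.95, SE 0.24) and was under the required fold against RLM (0.97, SE 0.23). The overlapping region chr12:8521784-8523784, 16782 bases from the start, lies over another RefSeq gene, 5033421B08Rik, and not over Slc7a15. It cannot be assigned to 1 of the 2 genes. In intron 1 of Slc36a1, chr11:55208335-55208501 had 107.6 and 38.5 tags of LXR, 149.4 and 215.1 of SMAD4 and 12.5 and 10.0 of RBPJ. At Slc7a8, 7 sites carried SMAD4 in nuclei, with 58.6 and 133.0 tags at the one that was highest in both libraries, and in BMDM 299.7 and 277.9 tags at chr14:54768498-54768664. In all, 43 of 81 LXR sites on the 60 genes in Kupffer cells were overlapped by a SMAD4 site, or 53.1%, where 54.2% of the LXR sites on all genes were. The 43 sites stood at 27 genes, and 9 of them were also overlapped by an RBPJ site.

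Of the 11 carriers called lower in Kupffer cells than in RLM, 4 had a peak of at least 1 factor in Kupffer cells and 7 had none, while all 11 called higher had one. Of all genes, whatever their call, 66.9% had one. The shares among all genes called higher or lower were not counted, so whether this contrast is particular to the carriers cannot be told. Only peaks on H3K27ac regions entered these counts. Of those called lower 7 had a mean under 10 CPM, against 3 of those called higher, and the part of the level in these counts was not tested. Slc7a11 had no peak of both libraries in Kupffer cells. In BMDM it had LXR peaks at its promoter (35.6 and 68.7 tags, overlapping the printed window with its ATF4 pair) and in intron 6 (78.8 and 36.6 tags), and RBPJ peaks at the same promoter (43.4 and 43.5 tags) and in intron 2 (58.5 and 62.3 tags). SMAD4 had a peak in that intron with 35.9 and 27.3 tags. Slc1a5 had SMAD4 alone in Kupffer cell nuclei, at its promoter with 16.4 and 31.6 tags. The promoter window of Slc7a1, where acetylation fell, was overlapped by a SMAD4 peak of nuclei (12.7 and 18.8 tags), and its gained intergenic region had an LXR peak at chr5:148465520-148465686 with 53.1 and 31.1 tags. At Slc38a1 the gained intron region had LXR at 80.5 and 33.6 tags, and the region that was lower in RLM than in monocytes had LXR at 79.8 and 18.5 tags. Slc38a7 had an LXR peak of Kupffer cells over its printed window (13.9 and 12.6 tags) and a SMAD4 peak of 114.0 and 63.2 tags just inside the gene. The taurine carrier Slc6a6, not called as a sum, had SMAD4 and LXR together at chr6:91712916-91713082, with 69.7 and 54.3 and 74.1 and 36.9 tags, and Slc1a4, a carrier of alanine and serine, had an LXR peak of 47.4 and 9.77 tags at a region that rose from 0.92 and 1.22 CPM in RLM to 6.56 and 5.81.

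Genes that handle the same amino acids were listed for comparison, and described by their counts beside the shares of all genes given above. Of 16 glutathione and redox genes 7 rose and none fell in Kupffer cells against monocytes, with a median of 0.90 against -0.08 for all genes, and 4 had risen in RLM. Among them were Abcc1, an exporter of glutathione conjugates (2.27, SE 0.17), the heme oxygenase Hmox1 (2.16, SE 0.16) and the peroxidase Gpx1 (1.61, SE 0.15). Of 15 arginine, creatine and polyamine genes 6 rose and 1 fell: Gatm, which makes the precursor of creatine, rose from 11.3 ± 3.07 to 153.3 ± 20.7 CPM (SD, n = 2), the arginase Arg2 rose by 2.33 and Ass1, which rebuilds arginine from citrulline, fell by 2.08. Of 11 genes of neurotransmitter synthesis and breakdown 5 fell, led by the acetylcholinesterase Ache (-3.74), the serotonin-making Tph2 (-3.51) and the monoamine oxidase Maoa (-3.30), and Ddc rose (1.21). Of 25 genes of amino acid synthesis and breakdown 5 rose, among them the tryptophan oxygenase Tdo2 (3.59) and the aspartate transaminase Got1 (2.87), and 4 fell, among them Kmo (-2.89) and Ido1 (-2.14) of the kynurenine route. The summed hepatocyte markers were also higher in both Kupffer cell libraries, as given above, and their part in rises such as those of Gatm and Tdo2, which liver cells also express, was not tested.

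Of 27 amino acid response genes 4 rose and 3 fell in Kupffer cells against monocytes, with Sesn2, a leucine sensor, at 2.18 and the uncharged-tRNA kinase Eif2ak4 at 2.03, and the serine synthesis gene Psat1 at -2.20. Of 29 genes of amino acid sensing by mTORC1 4 rose and 3 fell, with Sec13 at 2.16 and Rheb at -1.24. Of 21 other amino acid carriers 6 rose and 2 fell, among them the lysosomal exporter Pqlc2 (2.17), the peptide carrier Slc15a2 (1.83), the aromatic amino acid carrier Slc16a10 (1.81) and the mitochondrial aspartate and glutamate carrier Slc25a13 (-2.38). With DLL4, 3 lists had no call: the other carriers, mTORC1 sensing and the neurotransmitter genes. In the rest Ddit4 rose by 1.47, Kynu by 1.43, Ggt5, which cleaves glutathione conjugates outside the cell, by 1.21, Agmat by 1.09 and Il4i1, an amino acid oxidase, by 1.03, and Psph of serine synthesis fell by 1.19. In Kupffer cells minus RLM the count of the 11 neurotransmitter genes was 0 higher and 6 lower, with Abat, which breaks down GABA, at -3.21. Every other list had calls in both directions there. Higher and lower were 3 and 1 for glutathione and redox, 4 and 1 for arginine, creatine and polyamines, and 3 and 4 for amino acid response. They were 4 and 4 for synthesis and breakdown, 4 and 1 for mTORC1 sensing and 5 and 2 for other carriers.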

How the data were processed

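H3K27ac values are raw tag counts per region of 2000 bp, deposited by the authors as 2 tables, 1 of the monocyte and liver libraries and 1 of BMDM, which were tested separately. For LXR, SMAD4 and RBPJ the authors deposited a HOMER peak list per library, holding each peak's ratio to input, its score and its signal in tags per 10 M. Peaks were called at a false discovery rate of 0.001 and at least 4-fold over input, per the file headers. Per the submitters' processing notes, Bowtie2, HOMER and mm10 were used, and versions are not given in the sources used here. Per the file headers, the second LXR library of Kupffer cells had an input named for a NASH diet and was itself named for a control diet, and the nuclei libraries SMAD4 replicate 2 and RBPJ replicate 1 shared 1 input.

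Tags were summed per gene over regions within 100 kb of its start and tested over all genes with edgeR 4.0.16 (TMM, filterByExpr, quasi-likelihood, Benjamini-Hochberg) in R 4.3.3, all 6 libraries of the first table in 1 fit. CPM use TMM-scaled totals. SE are those of the fit. The scripts were tested on simulated data. DESeq2 1.42.0, other scalings, filters, distances and libraries left out were tried as alternatives. Peaks overlap a region by at least 1 bp. Peak lists rest on 11.2 to 56.3 M tags. Described singly are carriers called in at least 1 of 4 comparisons, and those with a Kupffer cell peak of both libraries on a called region. The region given is the called one with the largest difference, above the median level and without overlap between groups, beside the promoter region, and others were added after their values were seen. Of the pathway lists, the called genes with the largest differences are named. Members and lists were chosen with earlier results of these data known. One member stays in the counts, and its own values are not reported here.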

Additional observations from a re-analysis of the deposited data

How the results depend on the processing

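Of 57 called values of single carriers, 24 kept their call under every alternative run, among them both falls of Slc7a11, Slc1a5 and Slc7a5, both rises of Slc1a3, Slc7a7 and Slc7a8, and the rise of Slc7a11 with DLL4. Over all alternatives 622 of 717 such values kept the call, 87 lost it and 8 changed sign, without a call in the new direction. With total tags, Kupffer cells minus RLM had 6 carriers higher and 18 lower (11 and 11 with TMM), and DLL4 had 2 lower (1). Between RLM and monocytes 8 carriers were higher, against 5 with the Wald test of DESeq2 and 4 with only these groups in the fit. Leaving out 1 library gave 3 to 7 higher and 1 to 2 lower there, 1 to 4 carriers and 4 to 10 regions lower with DLL4, and 22 to 27 of the 60 genes with RBPJ peaks in Kupffer cell nuclei (16 with both libraries, 31 with either, 0 at a fold over input of at least 8).

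With regions within 10 kb of a start, Kupffer cells minus RLM had 6 carriers higher and 7 lower, Kupffer cells minus monocytes 8 higher and DLL4 2 higher. Signs turned there, without a call, for Slc7a15 in RLM minus monocytes (-0.23) and for Slc1a1 (-1.50 against RLM, -1.63 against monocytes). With regions more than 3 kb from a start, 3 carriers were lower in RLM than in monocytes and 2 lower with DLL4. Signs turned, again without a call, for Slc38a7 (-0.65 in RLM and -0.84 in Kupffer cells, both against monocytes), Slc7a6 (0.095 against RLM, 0.77 against monocytes) and Slc7a1 (0.27 against monocytes). The difference of Slc43a2 between Kupffer cells and RLM, not called over all its regions, turned to 1.23 and was called. These settings count other regions of a gene. With regions that do not overlap, 0 carriers were lower with DLL4. The cause of the other shifts was not tested.

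Libraries of equal number did not deviate together (correlation of deviations -0.04 to 0.05), which gave no sign of a pairing but cannot exclude one. With a replicate block, 55 of 57 calls were kept, and Slc7a13 in RLM minus monocytes (1.05, adjusted p = 0.058) and Slc6a20a in Kupffer cells minus monocytes (-1.42, adjusted p = 0.060) lost theirs. With 2 libraries a group, differences near 2-fold at low levels are the least certain.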

Other observations

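For several carriers the levels in cultured macrophages stood far from those in the other cells, and 3 that were higher in BMDM are given. In BMDM the aspartate and glutamate carrier Slc7a13 had 238.8 and 221.7 CPM without and 254.6 and 259.8 CPM with DLL4, whereas in monocytes, RLM and Kupffer cells it lay between 1.61 and 10.7 CPM. The creatine carrier Slc6a8 had 21.9 and 23.1 CPM in untreated BMDM, and 0.45 to 4.06 CPM in the other cells. Slc36a2, a proton-coupled carrier of glycine and proline, had 21.6 and 21.8 CPM in untreated BMDM and 0.39 to 2.26 CPM in the other cells. Slc7a1 went the other way, with 16.8 and 16.1 CPM in untreated BMDM and 92.2 to 298 CPM in the other cells. A summed level depends on the number of regions. Slc7a13 had 8 regions in BMDM and 2 in the other cells, Slc6a8 had 4 and 2, Slc36a2 had 4 and 1, and Slc7a1 had 10 and 12. The 2 tables hold different regions and were scaled separately, so these levels are set side by side without a test.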
